A study of Mus musculus with 6 samples.

Results

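The genes described here are 10 genes whose proteins sit in the Z-disc of heart muscle or hold the ends and springs of titin: Csrp3, Tcap, Xirp1, Xirp2, Ankrd1, Actn2, Ldb3, Myoz2, Ttn and Nebl. They were picked by symbol, and each matched a single Ensembl identifier among the 52550 gene rows of the count tables (GENCODE M21, build GRCm38). All 10 had enough counts to be tested. The choice was made with the difference between the genotypes already known, so their fold changes are given as a description and no p-value is attached to any of them.

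Tags from the 3′ ends of messenger RNA were counted in cardiomyocytes isolated from mouse hearts on postnatal day 1, in 3 libraries labelled ctrl (called control here) and 3 labelled GR-cKO, in which the glucocorticoid receptor gene Nr3c1 was deleted in cardiomyocytes. All 6 were purified by magnetic sorting, cultured with horse serum (5%) and fetal bovine serum (10%) for 48 hours, then kept for 24 hours in serum-free medium. The treatment label reads ctrl for all 6 and names no added hormone or drug. The Cre driver, the deleted exon, the genotype of the controls, the sex of the pups and the number of hearts behind a library are given neither in the labels nor in the study's design text. The libraries are called biological replicates without saying whether they came from separate animals or cultures, so errors and p-values below cover only the spread among these 6, part of which may be technical.

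The Z-disc is the wall between neighbouring sarcomeres, where actin filaments of opposite direction are cross-linked by alpha-actinin and where titin, the molecular spring that runs on to the M-band, is anchored. Many of its proteins also carry signals: some bind the phosphatase calcineurin or a kinase, and others leave the Z-disc or titin for the nucleus when the muscle is stretched. In the heart, mutations in several of these genes cause cardiomyopathy.

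The libraries held 19371508 to 22583596 gene counts. Within them a member had between 645 counts (Xirp1, lowest library) and 251228 counts (Ankrd1, highest library). Levels are given as CPM, in which a gene's count is divided by the library's total count after TMM scaling. Nr3c1 stood at 68.2, 73.9 and 72.4 CPM in control and at 46.2, 42.8 and 44.1 CPM in GR-cKO. A tag at the 3′ end outside the deleted part need not vanish, so this does not measure the receptor that was left. Xist, which marks cells with an inactive X chromosome, was at 271 to 293 CPM in the controls and at 0 to 0.0996 CPM in GR-cKO. Sex and genotype can therefore not be told apart for any gene below, and all 10 members lie on autosomes. The cells carried the markers of cardiomyocytes, with Tnnt2 at 8251 ± 124 CPM in control (SD, n = 3) and Myh6 at 4364 ± 169 CPM. Skeletal muscle shares many Z-disc proteins, and 12 of its markers were summed. The sum was 21.8 to 22.1 CPM over the controls, against 25.7 to 29.9 for the GR-cKO libraries. These markers did not move together. Of the 6 tested in the fit described below, Tnnt3 rose (log2 fold change 1.21), Myh8 fell (-1.07) and the others did not pass. Myf5 and Pax7 were at 0 in every library.

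Most of the Z-disc genes were higher in GR-cKO. Xirp2 was highest above control, followed by Csrp3, and Xirp1, Ttn, Myoz2, Ankrd1, Ldb3 and Actn2 were higher by smaller amounts. Tcap was lower and Nebl slightly lower. In the fit over all genes (edgeR quasi-likelihood test, adjusted p below 0.05) 8 of the 10 passed as higher, 1 (Tcap) as lower, and Nebl did not pass. Of all 14386 genes tested, 14.8% were called, 7.63% higher and 7.19% lower. The groups did not overlap in any of the 10 members and in 29.9% of all genes tested. Since the members were chosen on this contrast, nothing is read from these counts. The median log2 fold change, GR-cKO over control, was 0.46 over the 10 members and -0.01 over all genes tested.

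**Figure D1:**
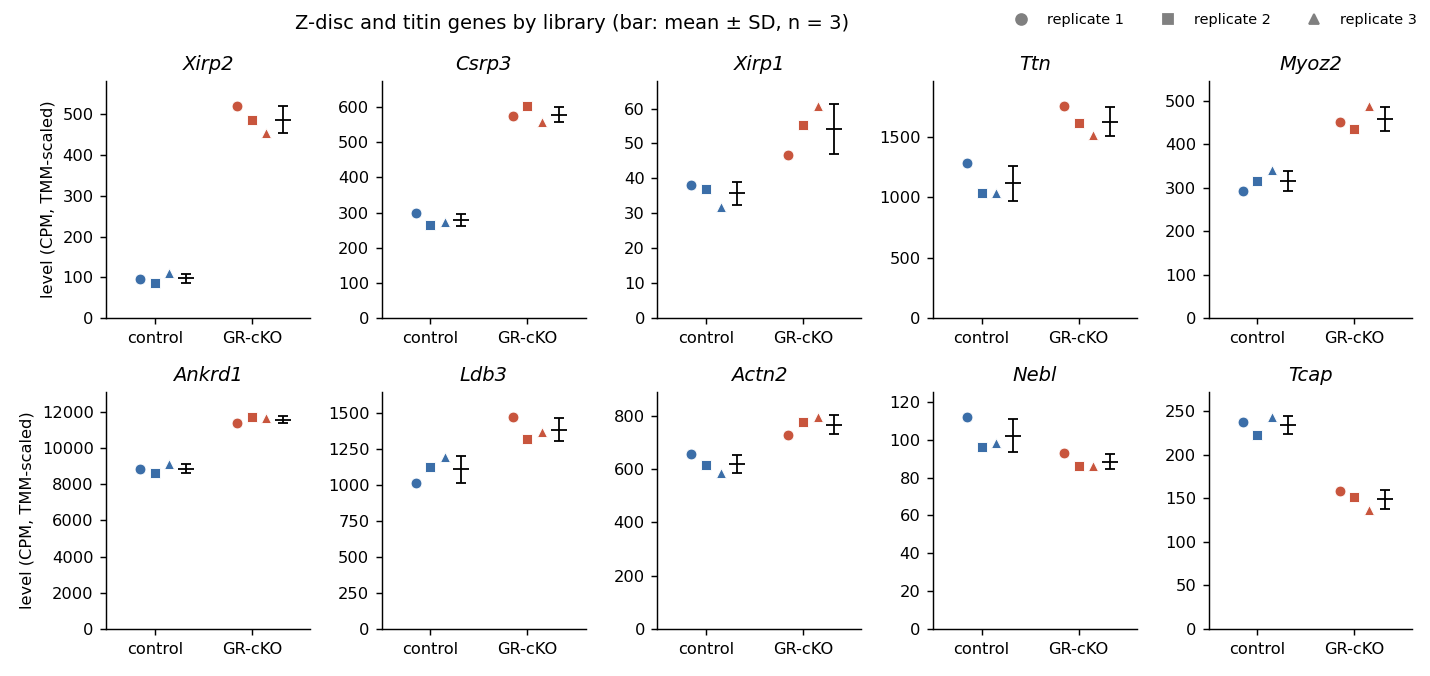
Level of each of the 10 genes in every library, in CPM scaled by TMM factors on axes that start at 0, with control in blue, GR-cKO in red, 1 symbol per replicate number, and the mean ± SD of 3 libraries in black. Xirp2 goes from 86.9 to 110 CPM in control to 455 to 519 CPM in GR-cKO, Tcap lies lower in all 3 GR-cKO libraries, and the Nebl groups are separated by a narrow gap (96.2 against 92.9 CPM).

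The stretches upstream of 4 of the genes with higher levels are shown because they hold letters known as binding motifs of transcription factors of heart muscle. Windows of Ldb3, also higher, and of Nebl, slightly lower, held such letters too and are not printed. RefSeq promoter windows (build GRCm38.p6) matched 8 of the 10 genes with 13 start sites, and none matched Tcap or Xirp1. The 250 bases before the start site are printed 5′ to 3′ on the gene's own strand, for Xirp2 (chr2:67445752-67446001, plus strand), Myoz2 (chr3:123034988-123035237, minus strand), Ttn (chr2:76982548-76982797, minus strand) and Ankrd1 (chr19:36119845-36120094, minus strand). Capitals mark a MEF2 site in the first 3, and in Ankrd1 the letters GGAATG, which read CATTCC on the other strand, the motif of TEAD factors.
Xirp2: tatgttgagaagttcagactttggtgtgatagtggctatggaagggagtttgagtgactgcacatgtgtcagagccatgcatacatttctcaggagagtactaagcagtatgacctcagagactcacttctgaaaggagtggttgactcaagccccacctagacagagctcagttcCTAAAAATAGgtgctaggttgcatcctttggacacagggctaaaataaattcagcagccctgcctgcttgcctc
Myoz2: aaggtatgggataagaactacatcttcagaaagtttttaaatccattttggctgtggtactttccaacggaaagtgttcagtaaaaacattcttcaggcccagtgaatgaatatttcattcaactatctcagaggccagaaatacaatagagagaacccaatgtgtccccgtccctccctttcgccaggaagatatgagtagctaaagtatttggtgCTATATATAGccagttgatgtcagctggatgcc
Ttn: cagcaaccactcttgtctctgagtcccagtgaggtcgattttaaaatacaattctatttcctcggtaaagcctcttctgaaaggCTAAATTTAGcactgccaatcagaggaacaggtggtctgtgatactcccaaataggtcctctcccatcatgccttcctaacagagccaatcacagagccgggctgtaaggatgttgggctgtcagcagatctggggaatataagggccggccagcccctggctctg
Ankrd1: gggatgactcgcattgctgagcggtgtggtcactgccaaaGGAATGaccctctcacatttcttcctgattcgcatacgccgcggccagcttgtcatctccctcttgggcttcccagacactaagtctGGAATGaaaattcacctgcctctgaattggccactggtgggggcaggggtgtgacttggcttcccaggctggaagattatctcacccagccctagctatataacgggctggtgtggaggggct

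The MEF2 site began 74 bases before the start of Xirp2, 33 before that of Myoz2 and 166 before that of Ttn. A MEF2 site, searched as CTA, then 4 bases of A or T, then TAG, on both strands like all motifs here, was found in 3 of the 13 member windows of 300 bases (250 before and 50 after the start) and in 0.557% of all 32851 windows. CATTCC stood at 210 and 123 bases before the start of Ankrd1. It was also present in a window of Nebl and, after the start site, in that of Ttn, and 14.7% of all windows held it. A CArG box, the motif of serum response factor, searched as CC, 6 bases of A or T and GG, lay in both overlapping windows of Ldb3 (as 1 shared site) and in a window of Nebl, against 1.63% of all windows. AGAACA, the core that a single glucocorticoid receptor molecule binds, was found in a window of Csrp3 and in both of Ldb3 (as 1 shared site), against 19% of all windows. The paired element, AGAACA followed after 3 bases by TGTTCT, was in 0 of the 13 windows and in 0.00913% of all. AGATAA, a motif of GATA factors, was in windows of Ankrd1 and Nebl (11.2% of all windows). ACGTG, the core of the hypoxia response element, was in windows of Actn2, Ldb3 and Nebl (19.6% of all windows). TATAAA was in none of the member windows and in 13.6% of all. Overlapping motifs were counted under each name. A match is a string of letters and does not show that a factor binds there.

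Among the proteins that bind actin filaments, the pair of Xin repeat genes differed in size of change. Xirp2 (ENSMUSG00000027022, chromosome 2, 67446002 to 67526614, plus strand) encodes a large actin-binding protein of the Z-disc and the intercalated disc. It stood at 95.9, 86.9 and 110 CPM in control and at 519, 487 and 455 CPM in GR-cKO. The lowest GR-cKO library lay far above the highest control library. This corresponds to a log2 fold change of 2.32 ± 0.08 (SE), or 4.99-fold, and 0.452% of all genes tested had a larger one. Its paralogue Xirp1 (ENSMUSG00000079243, chromosome 9, 120013755 to 120023598, minus strand), which binds actin at the intercalated disc, was at 38.1, 37.1 and 31.9 CPM in control and 46.6, 55.4 and 60.6 CPM in GR-cKO. The groups did not overlap, but the 3 GR-cKO libraries spread by 13% of their mean (coefficient of variation). Xirp1 had a log2 fold change of 0.60 ± 0.11. Its gene span overlaps Cx3cr1 on the same strand without shared exons, and Cx3cr1 had 11 to 19 counts in a library. Annotated antisense genes overlap Xirp2 and Ttn, with 0 counts in every library, and Nebl, with 0 to 9 counts.

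Actn2 (ENSMUSG00000052374, chromosome 13, 12269426 to 12340760, minus strand) encodes the alpha-actinin that cross-links actin in the cardiac Z-disc. It was at 656, 617 and 587 CPM in control and 729, 779 and 796 CPM in GR-cKO, a log2 fold change of 0.31 ± 0.06. The groups were apart by a gap of similar size to the range within each. Nebl (ENSMUSG00000053702, chromosome 2, 17343909 to 17731464, minus strand) encodes nebulette, a short cardiac relative of nebulin that binds actin at the Z-disc. Its levels were 112, 96.2 and 98.5 CPM in control and 92.9, 86.3 and 86 CPM in GR-cKO. The log2 fold change was -0.21 ± 0.08 with a 95% interval of -0.38 to -0.04, and the gene did not pass the threshold over all genes. The annotation gives Nebl 7 coding transcripts with 7 different 3′ ends, which the gene count adds together. Its long relative Neb, the nebulin of skeletal muscle, was at 1.85 ± 0.511 and 1.23 ± 0.556 CPM (SD, n = 3 each), and Lasp1, a further relative that shares nebulin repeats, was at 178 ± 27.7 and 135 ± 15.1 CPM.

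Of the adaptors that bind alpha-actinin, Ldb3 (ENSMUSG00000021798, chromosome 14, 34526603 to 34588682, minus strand), also known as Cypher or ZASP, joins a PDZ and LIM domains and tethers kinases to the Z-disc. It was at 1010, 1121 and 1193 CPM in control and 1470, 1318 and 1364 CPM in GR-cKO, with a log2 fold change of 0.32 ± 0.07. Its 7 coding transcripts also have 7 different 3′ ends. Myoz2 (ENSMUSG00000028116, chromosome 3, 123006206 to 123035015, minus strand) encodes calsarcin-1, which holds calcineurin at the Z-disc and restrains it. It stood at 293, 315 and 340 CPM in control and 452, 434 and 487 CPM in GR-cKO. All 3 GR-cKO libraries were higher, with a log2 fold change of 0.53 ± 0.07. The relatives Myoz1 and Myoz3, known from skeletal muscle, had too few counts to be tested, with Myoz3 at 0 in all libraries.

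Csrp3 (ENSMUSG00000030470, chromosome 7, 48830398 to 48848033, minus strand) encodes muscle LIM protein, which binds alpha-actinin and telethonin and has been proposed as part of a stretch sensor. It was at 299, 265 and 273 CPM in control and 574, 601 and 558 CPM in GR-cKO. The log2 fold change was 1.05 ± 0.07, or 2.07-fold, and 3.27% of all genes tested had a larger one. The other cysteine- and glycine-rich proteins, which are broadly expressed, had values of 0.33 ± 0.06 (Csrp1, adjusted p = 0.000254) and -0.14 ± 0.06 (Csrp2, adjusted p = 0.151) on the same scale. A difference between Csrp3 and these was not tested.

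Tcap (ENSMUSG00000007877, chromosome 11, 98383811 to 98384953, plus strand) encodes telethonin, the small protein that joins the ends of neighbouring titin molecules in the Z-disc. It was the member that went furthest the other way, at 237, 222 and 243 CPM in control and 158, 151 and 137 CPM in GR-cKO. The highest GR-cKO library lay below the lowest control library. The log2 fold change was -0.65 ± 0.07 and 6.28% of all genes tested had a lower one. The gene spans 1143 bases with 1 annotated transcript of 2 exons, so the annotation gives a single 3′ end. Ends outside the annotation were not examined. Ttn (ENSMUSG00000051747, chromosome 2, 76703980 to 76982547, minus strand), whose longest annotated coding transcript has 347 exons and 106824 bases, was at 1285, 1034 and 1033 CPM in control and 1751, 1614 and 1514 CPM in GR-cKO. Control replicate 1 was higher than the other controls, and the groups still did not overlap. Ttn had a log2 fold change of 0.54 ± 0.08. Its 21 coding transcripts have 17 different 3′ ends in the annotation, and a read near an inner end is counted as Ttn like any other.

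Ankrd1 (ENSMUSG00000024803, chromosome 19, 36111961 to 36120099, minus strand) encodes cardiac ankyrin repeat protein, which binds the spring region of titin, enters the nucleus and is known to rise in stretched heart muscle. It was at 8859, 8602 and 9096 CPM in control and 11350, 11699 and 11641 CPM in GR-cKO. These were the closest replicates among the 10 genes, with coefficients of variation of 2.79% and 1.62%. The log2 fold change was 0.39 ± 0.05, or 1.31-fold. The other muscle ankyrin repeat genes had few counts: Ankrd2 had too few counts to be tested and Ankrd23 was at 0.946 ± 0.0874 and 2.19 ± 0.3 CPM (log2 fold change 1.21 ± 0.46, adjusted p = 0.081).

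In order of log2 fold change the members ran Xirp2, Csrp3, Xirp1, Ttn, Myoz2, Ankrd1, Ldb3, Actn2, Nebl and Tcap. The step from Xirp2 to Csrp3 was 1.27 ± 0.11 (SE of the difference, taking the genes as independent) and that from Csrp3 to Xirp1 was 0.45 ± 0.13. From Xirp1 to Ttn and from Ttn to Myoz2 the steps were 0.06 ± 0.13 and 0.01 ± 0.10, each within 1 SE. Myoz2 lay 0.15 ± 0.08 above Ankrd1. Ankrd1, Ldb3 and Actn2 were again within 1 SE of each other in turn, with steps of 0.06 ± 0.08 and 0.01 ± 0.09. The step from Actn2 down to Nebl was 0.52 ± 0.10 and that from Nebl to Tcap 0.44 ± 0.11.

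**Figure D2:**
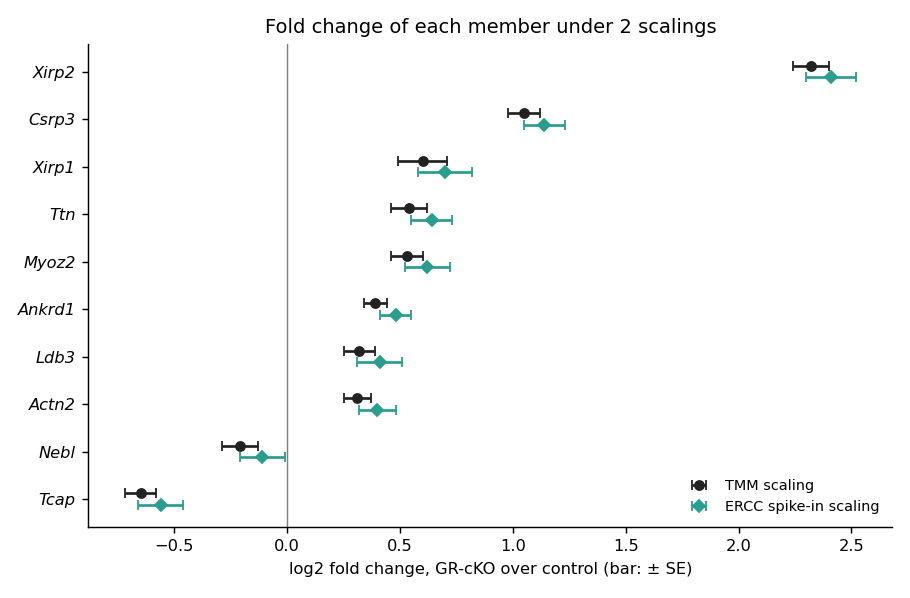
Log2 fold change of each gene, GR-cKO over control, with its standard error, under TMM scaling (black circles) and when ERCC spike-in RNA sets the scale (green diamonds). The order is the same in both, Xirp2 stands at 2.32 and 2.41, and Nebl at -0.21 and -0.11.

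Scaling by the ERCC spike-in RNAs in place of TMM raised the median of all genes by 0.093 on the log2 scale. It turned the split of calls over all genes from 1097 higher and 1035 lower to 1355 higher and 522 lower. The 10 members kept their directions, with Ankrd1 at 0.48 and Tcap at -0.56.

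The members were also set against other cardiomyocyte genes. In bulk RNA, fewer cells of a type and less RNA per cell cannot be told apart. The summed level of 7 cardiomyocyte markers (Tnnt2, Tnni3, Myh6, Actc1, Ryr2, Pln, Mybpc3) was 24879 to 25880 CPM in control and 30553 to 31441 CPM in GR-cKO, a log2 difference of 0.30. These markers did not move as 1 body: Actc1 rose by 0.63 ± 0.05 on the log2 scale, Tnni3 was at -0.00 and Pln fell by 0.33. Markers of ventricular cells summed to 10215 to 11285 CPM in control and 13799 to 15535 CPM in GR-cKO, where 3 of the 5 rose and 1 fell. The sum of 7 atrial markers was 17733 to 17884 CPM in control and 20416 to 21565 CPM in GR-cKO, but only Nppa, which also stands on the stretch and load list below, rose (mean 13621 and 18229 CPM). Of the other atrial markers Myl7, Sln and Kcnj3 fell, with log2 fold changes of -0.71, -0.86 and -1.70, and 3 did not pass. The fibroblast sum over 8 markers was 3609 to 3813 CPM in control and 4721 to 4840 CPM in GR-cKO. The endothelial sum over 6 markers was 627 to 681 and 742 to 773 CPM. The smooth muscle and pericyte sum over 6 markers was 3513 to 3621 and 4084 to 4317 CPM. Most of it was Acta2 (mean 3294 and 3835 CPM), while Myh11 and Tagln were lower without passing (-0.60 and -0.23). The leukocyte sum over 6 markers was 13.2 to 17.3 and 34.4 to 53.9 CPM. Most of that was Lyz2 (mean 12.9 and 40.6 CPM), and Cd68 and Csf1r did not pass. The epicardial sum over 5 markers was lower in GR-cKO, at 55.4 to 66.6 against 87.7 to 91.5 CPM. Of the markers in these 7 lists 0 were at 0 in all libraries. Of the tested markers 4 rose and 1 fell among 8 of fibroblasts, 5 and 1 among 6 of endothelium, 3 and 0 among 6 of smooth muscle and pericytes, 2 and 0 among 4 of leukocytes and 1 and 2 among 5 of the epicardium. Their part in the levels of the Z-disc genes was not tested.

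Within a library the ratio of a member to the cardiomyocyte sum does not depend on the scaling between libraries. For this ratio, which was extended to all members after the data were seen, control and GR-cKO were apart without overlap in 5 members and in 51.1% of all genes tested, so the share of members is near that of all genes. The mean log2 ratio was higher in GR-cKO by 2.02 for Xirp2, 0.75 for Csrp3 and 0.23 for Myoz2, and lower by 0.96 for Tcap and 0.51 for Nebl (GR-cKO minus control -0.96 and -0.51). The replicates of these 5 had a pooled SD between 0.05 (Csrp3) and 0.13 (Xirp2), and the gap between the groups was narrow for Myoz2. In the other 5 the groups overlapped, with mean differences of 0.00 for Actn2, 0.02 for Ldb3, 0.08 for Ankrd1, 0.24 for Ttn and 0.29 for Xirp1. The overlap was narrow for Ttn and Xirp1. With the control mean set to 0, the highest control and lowest GR-cKO library were at 0.172 and 0.169 for Ttn. For Xirp1 they were at 0.080 and 0.073. The log2 fold changes of Actn2 and Ldb3 (0.31 and 0.32) were thus close to the log2 difference of the marker sum (0.30). That sum is not a rise shared by its markers, which ran from -0.33 (Pln) to 0.63 (Actc1). The -0.51 of Nebl, which did not pass in CPM, combines its own log2 fold change of -0.21 with the rise of the sum.

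**Figure D3:**
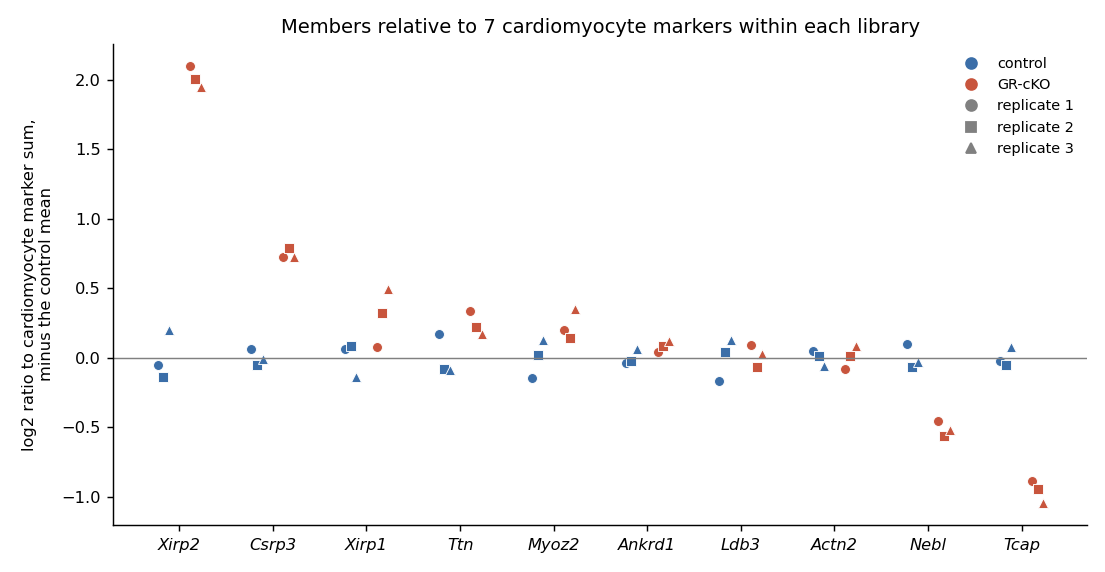
Log2 ratio of each gene to the sum of 7 cardiomyocyte markers in the same library, with the control mean set to 0, for 3 control (blue) and 3 GR-cKO (red) libraries and 1 symbol per replicate number. Xirp2, Csrp3 and Myoz2 lie above the controls and Nebl and Tcap below, while the points of Xirp1, Ttn, Ankrd1, Ldb3 and Actn2 overlap. The gap of Myoz2 and the overlaps of Xirp1 and Ttn are narrow.

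Telethonin and titin are partners, and the balance of their transcripts differed between the groups. The log2 ratio of Tcap to Ttn was -2.44, -2.22 and -2.09 in the control libraries and -3.47, -3.41 and -3.46 in GR-cKO. The control libraries differed among themselves (SD 0.18) more than the GR-cKO libraries (SD 0.03), and the mean difference was -1.20. Against the same partner, Xirp2 was at -3.74, -3.57 and -3.24 in control and at -1.76, -1.73 and -1.73 in GR-cKO, a difference of 1.78. Csrp3 had a difference of 0.50 without overlap. Ankrd1 to Ttn was 2.78, 3.06 and 3.14 in control and 2.70, 2.86 and 2.94 in GR-cKO, so these groups overlapped, with a mean difference of -0.16. The level of such a ratio reflects how well each 3′ end is read, and only its change between groups is described.

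The 3 genes with the most similar pattern were taken for Xirp2 and for Csrp3. Likeness was the root mean square difference of log2 CPM centred on each gene's mean over the 6 libraries. The search covered 9872 genes with a mean of at least 5 CPM over the 6 libraries. Members and genes with Gm or Rik names were left out. Nearest to Xirp2 were the metallothionein gene Mt1 (0.13), the lactate exporter gene Slc16a3 (0.15) and Tmem267 (0.17). Tmem267 stood at 1.83 to 2.16 CPM in control and 9.08 to 10.2 CPM in GR-cKO, so it met that limit only through GR-cKO. Nearest to Csrp3 were the phosphofructokinase gene Pfkp, the cytokine gene Mif and the glycogen synthase gene Gys1, each at 0.06. With 6 libraries in 2 groups these distances mostly reflect an equal fold change.

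The genes that build the rest of the Z-disc and its links to the membrane were tested in the same fit over all genes. The lists below were taken by known role, though with earlier results of these data known. Each list count is to be read beside all genes tested, of which 7.63% rose and 7.19% fell. The median log2 fold change over all genes tested was -0.01. Of 30 listed Z-disc and costamere genes 27 were tested, of which 12 rose, 1 fell and 14 did not pass, with a median log2 fold change of 0.19. Desmin (Des), the intermediate filament that ties Z-discs together, rose by 0.97 ± 0.06 on the log2 scale (adjusted p = 6.58e-11). It averaged 1242 ± 67.4 CPM over the controls and 2438 ± 183 CPM over GR-cKO. Nrap, a nebulin-related protein of growing myofibrils, rose by 0.77 ± 0.07 (adjusted p = 9.33e-09). The synaptopodin-family genes Synpo2 and Synpo2l rose by 0.75 ± 0.10 and 0.55 ± 0.06 (adjusted p = 8.58e-06 and 8.06e-07). The gene that fell was Lasp1 (-0.40 ± 0.10, adjusted p = 0.00465), named after its value was seen. Its call was lost with ERCC scaling (adjusted p = 0.0889), without control replicate 3 (0.0596) and without GR-cKO replicate 2 (0.0536). Among those that did not pass were the non-muscle alpha-actinins Actn1 (0.07, 95% interval -0.05 to 0.19) and Actn4 (0.18, 0.05 to 0.31), and vinculin, Vcl (-0.01, -0.14 to 0.13). With ERCC scaling 13 rose and 0 fell.

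Of 20 genes for titin's spring, A-band and M-band partners 19 were tested. Of these 6 rose, 1 fell and 12 did not pass, with a median of 0.16. The LIM-domain genes Fhl1 and Fhl2, whose proteins both bind titin's spring region, went in opposite directions. Fhl1 averaged 382 ± 17.1 CPM over the controls and 696 ± 16.1 CPM over GR-cKO, a rise of 0.87 ± 0.06 on the log2 scale (adjusted p = 4.4e-10). Fhl2 was at 1128 ± 39.7 and 762 ± 6.46 CPM, with a log2 fold change of -0.57 ± 0.06 (adjusted p = 1.54e-07). Myomesin, Myom1, which cross-links titin and myosin in the M-band, rose by 0.56 ± 0.07 (adjusted p = 3.97e-06). The ubiquitin ligase gene Trim54 rose by 0.54 ± 0.09 (adjusted p = 7.6e-05). Rbm20, which controls titin splicing, was at 57 ± 2.65 and 66.3 ± 2.48 CPM and did not pass (adjusted p = 0.0932).

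Of 20 genes known to respond to stretch or load in cardiomyocytes 12 rose, 2 fell and 6 did not pass, with a median of 0.42. Among the 12, Nppb, named after its value was seen, rose by 0.49 ± 0.15 (adjusted p = 0.0267) although its groups overlapped. It was at 106, 143 and 127 CPM in control and 161, 124 and 244 CPM in GR-cKO. Skeletal alpha-actin, Acta1, rose by 2.03 ± 0.07 (adjusted p = 1.03e-16) and Rcan1, which encodes an inhibitor of calcineurin, by 1.39 ± 0.07 (adjusted p = 2.07e-12). Rcan1 averaged 186 ± 19.8 CPM over the controls and 488 ± 14.9 CPM over GR-cKO. Hbegf, a growth factor, rose by 0.76 ± 0.07 (adjusted p = 9.74e-09), and the vasoconstrictor gene Edn1 fell by 0.71 ± 0.07 on the log2 scale (adjusted p = 2.86e-08). The other gene that fell, the growth factor gene Bdnf, named after its value was seen, was at -0.49 ± 0.13 (adjusted p = 0.0131). That call was lost with ERCC scaling (adjusted p = 0.0689) and when control replicate 1 or 2 or GR-cKO replicate 3 was left out (0.0591 to 0.0901). Myh7, the slow myosin that marks load in the adult heart, was at 551 ± 96.7 and 493 ± 11.4 CPM and did not pass (adjusted p = 0.254). Several of these genes also respond to other stimuli, and the labels name no stretch of the cells.

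Of 18 genes for calcineurin and the signalling enzymes of the Z-disc 3 rose, 1 fell and 14 did not pass, with a median of 0.04. Over all genes tested 14.8% were called, 7.63% higher and 7.19% lower. The genes that rose were Lims2, a partner of integrin-linked kinase (0.83 ± 0.11, adjusted p = 8.14e-06), Murc, a caveolar coiled-coil gene of muscle (0.75 ± 0.13, adjusted p = 0.000222), and Nfatc4, a transcription factor that calcineurin activates (0.47 ± 0.12, adjusted p = 0.00638). The catalytic subunit gene Ppp3ca was at 207 ± 3.44 and 178 ± 9.39 CPM (-0.22 ± 0.07, adjusted p = 0.0334). This call was lost with ERCC scaling (adjusted p = 0.476) and without control replicate 1, 2 or 3 or GR-cKO replicate 1 or 2 (adjusted p = 0.0503 to 0.197). The call of Nfatc4 was lost without control replicate 2 (adjusted p = 0.0619), where 2 genes of the list were left past the threshold.

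Of 20 transcription factors of sarcomere genes 1 rose, 5 fell and 14 did not pass, with a median of -0.13. Tbx5, a T-box factor of the embryonic heart, averaged 88.2 ± 2.93 CPM over the controls and 58.5 ± 4.13 CPM over GR-cKO (-0.59 ± 0.08, adjusted p = 1.46e-05). Gata6 was at 122 ± 2.32 and 86.9 ± 2.03 CPM (-0.49 ± 0.07, adjusted p = 3.81e-05). Tead1, which binds the CATTCC motif, fell by 0.30 ± 0.07 on the log2 scale (adjusted p = 0.005), and Hand2 and the SRF cofactor gene Mrtfa, named after their values were seen, by 0.29 ± 0.08 and 0.39 ± 0.12 (adjusted p = 0.0112 and 0.0242). Mef2d rose by 0.31 ± 0.07 (adjusted p = 0.00504). Srf and the other MEF2 genes did not pass, with Srf at 0.09 (95% interval -0.10 to 0.28), Mef2a at -0.11 (-0.25 to 0.04) and Mef2c at 0.06 (-0.09 to 0.20). Only Tbx5 and Gata6 still fell with ERCC scaling, where the adjusted p was 0.206 for Tead1, 0.246 for Hand2 and 0.147 for Mrtfa, and without GR-cKO replicate 2, where it was 0.0518, 0.0968 and 0.0823. Without control replicate 2 or 3 the calls of Hand2 (0.069 and 0.0629) and Mrtfa (0.0509 and 0.0895) were lost, and without GR-cKO replicate 1 that of Mrtfa (0.138).

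**Figure D4:**
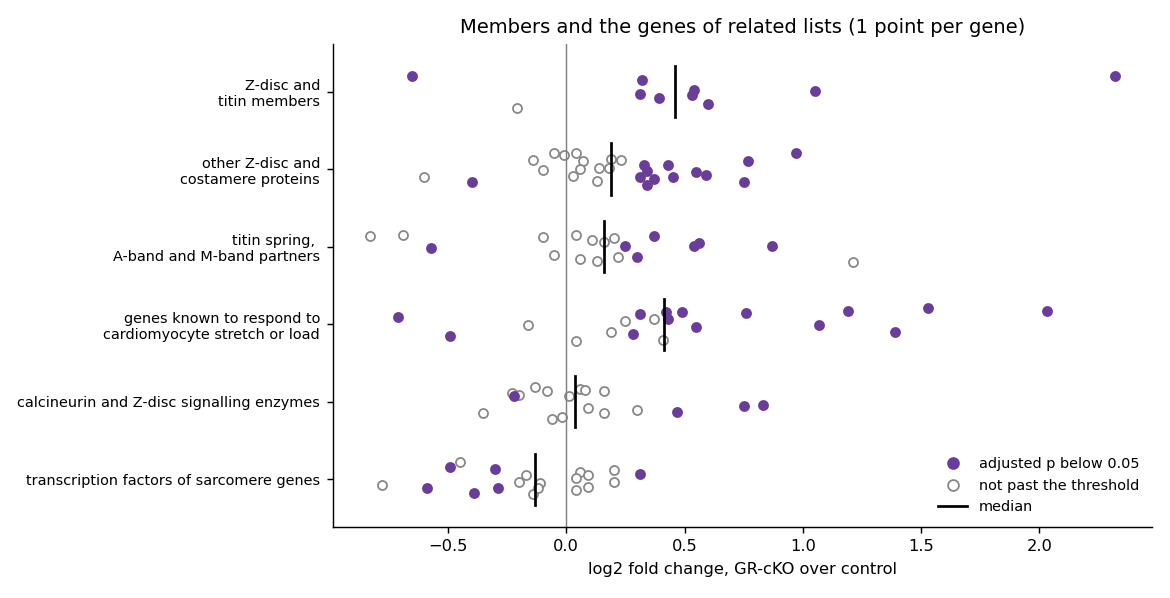
Log2 fold change, GR-cKO over control, of the 10 Z-disc and titin genes and of the tested genes of 5 related lists, 1 point per gene, filled where the adjusted p was below 0.05, with the median of each list as a bar (vertical position within a list is arbitrary). The medians run from 0.46 for the members, which were chosen on this contrast, to -0.13 for the transcription factors.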

How the data were processed

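RNA from 100 ng per sample went into QuantSeq 3′ forward libraries, per the labels' protocols. For each library the authors deposited whole-number counts of reads per gene, not normalized. The submitters' processing notes list STAR 2.5.4a and featureCounts 1.6.2 beside cutadapt 1.16, and the build GRCm38. Neither the strand setting nor the handling of multi-mapping reads is given in the sources used here, so a read shared with an overlapping antisense gene cannot be told apart.

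The 92 ERCC and 7 SIRV spike-in rows (1.98% to 2.36% of counts) stayed out of library sizes and tests. GENCODE M21 named 52403 of 52550 genes. Counts were fitted over all genes with edgeR 4.0.16 (R 4.3.3): TMM factors (0.9803 to 1.024), the default filter on low counts, the quasi-likelihood test, and Benjamini-Hochberg adjustment over 14386 genes at a threshold of 0.05. CPM used the same library sizes. The SE is the log2 fold change divided by the root of its F statistic. On simulated counts for this comparison (14097 genes tested) the share called was 20.4% for a 1.25-fold change, 66% for 1.5-fold, 77.6% for 2-fold and 86% for 3-fold, and 8 unchanged genes were called. Only 49 or 50 tested genes were changed at each fold, while 2132 genes were called in the data. The adjustment over all genes therefore differs, and these shares need not hold for the data. A count of 0 allows up to 0.133 to 0.155 CPM (3 counts, counting error only).

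The members, lists and named genes were chosen with earlier results of these data known. The rule named all members, then up to 4 genes per list with the smallest p (or 2 where none passed), then the 3 nearest patterns of Xirp2, Csrp3 and Tcap. Those of Tcap are not reported here. Alternatives were DESeq2 (1.42.0) size factors, its Wald test, no filter, ERCC scaling, a replicate block and leaving out each library.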

Additional observations from a re-analysis of the deposited data

How the results depend on the processing

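The 9 calls among the 10 members, and Nebl as not called, were the same under DESeq2 size factors, the DESeq2 Wald test, no filter on low counts, ERCC scaling, the replicate block and without each of the 6 libraries. All of these settings refit the same 6 libraries, and the members were chosen on this contrast. The unchanged calls describe the processing only and add no evidence for the members. Over these settings the log2 fold change ran from 2.24 to 2.41 for Xirp2, from -0.69 to -0.56 for Tcap and from -0.25 to -0.11 for Nebl. The count of genes called over all genes was 2132, and 1572 to 2239 over the leave-one-out and filter settings. The labels number the replicates alike in both groups, but same-numbered libraries did not deviate together (correlation across 14386 genes of -0.000102, 0.0366 and 0.0195). With the replicate block 2353 genes and the same 9 members were called, and no call changed among the 25 list genes followed.

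With ERCC scaling 3 of the 20 transcription factors were called, in place of 6, and 3 to 6 were called when 1 library was left out, with 3 without GR-cKO replicate 2. Of the calcineurin and Z-disc signalling genes 2 to 4 were called when 1 library was left out, with 2 without control replicate 2. The cause was not tested. Taken against the cardiomyocyte marker sum in place of Ttn, the group difference of the log2 ratio was -0.96 in place of -1.20 for Tcap, 0.75 in place of 0.50 for Csrp3 and 2.02 in place of 1.78 for Xirp2, and for Ankrd1 it reversed from -0.16 to 0.08, a ratio whose groups overlapped both ways. In a shorter window of 150 bases before the start, 1 member window held CATTCC, 1 AGAACA and 1 ACGTG, in place of 3 each. The MEF2 site and the CArG box were each in 2 member windows in place of 3, and AGATAA stayed at 3. Recovery of changes as small as that of Nebl was not simulated.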
